A study of Mus musculus with 6 samples.

Results

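Smooth muscle contractile genes encode the proteins with which the muscle layers of the colon wall shorten and relax. They were followed here through a list of 39 genes, out of 18193 genes to which the platform annotation gives 1 or more probe sets under that symbol alone. All 39 were measured, by 88 probe sets in all. A gene's values come from the probe set that was brightest on average over the 6 arrays, and the dimmer sets are described afterwards. Total RNA of the colon came from 3 HDAC1/2 deficient mice, in which floxed Hdac1 and Hdac2 were deleted by a villin-Cre transgene, and from 3 control mice that the labels call wild type, all 4 months old. The sources used here do not say whether the controls carried floxed alleles. Each sample was hybridized to 1 Affymetrix mouse genome array. The villin promoter drives Cre in epithelial cells of the intestine, so smooth muscle was not a target of the deletion. By its label the RNA is of colonic epithelium, whereas the extraction protocol speaks of the colon.

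Smooth muscle shortens when calcium, bound to calmodulin, turns on myosin light chain kinase, which phosphorylates the regulatory light chain and lets myosin pull on actin. Myosin phosphatase reverses this step, and kinases that act on the phosphatase set how much force a given level of calcium gives. The filaments are tied to the membrane and to each other by dense bodies and plaques rich in actinin, filamin, vinculin and desmin. Transcription of many of these genes depends on serum response factor and its coactivator myocardin. In the colon these cells form the muscularis propria and the thin muscularis mucosae, and they move the contents along together with enteric neurons and interstitial cells of Cajal.

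Values are log2 RMA signals per probe set, normalized by the authors, with array medians between 6.78 and 6.81. The defining smooth muscle genes were bright in both groups, with Acta2, Actg2, Tagln and Myh11 between 12.50 and 14.25 on the 6 arrays, so the RNA held muscle as well as epithelium. Hdac1 was lower on the deficient arrays (log2 values from 9.21 to 9.32) than on the control arrays (from 10.53 to 10.60). Hdac2 was not (from 10.92 to 11.02 against 10.92 to 10.96), and whether its 3 probe sets read the deleted part of the gene was not determined. Every deficient array carried both Eif2s3y of the Y chromosome (from 8.22 to 8.49, against 3.84 to 4.31 on control arrays) and Xist of the inactive X (from 11.99 to 12.06, against 12.81 to 12.88). The labels number 1 mouse per array, and the sources used here do not say whether RNA of several mice was combined. The Y-linked signal was present on all deficient arrays and near the bottom of the scale on all control arrays, so the sex of the mice and their genotype cannot be told apart in any comparison. What the p-values measure is thus the spread among 3 arrays per group, which was small (median SD per probe set of 0.0632 in deficient and 0.0666 in control colon), and which may be technical in part.

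Most smooth muscle contractile genes were lower in HDAC1/2 deficient colon. Of the 39 genes, 32 fell, 2 rose and 5 did not pass at a limma adjusted p under 0.05, where 28.4% of all 18193 genes fell and 21.9% rose. The median log2 fold change was -0.40 over the 39 genes and -0.022 over all named genes. The shift was moderate, since 14 of the genes fell by more than 0.5 on the log2 scale (9.34% of all genes did) and 0 by more than 1 (1.82% of all genes). The groups did not overlap in 33 genes that were lower and 2 that were higher in deficient colon, against 34.1% and 26.9% of all genes. Measured from each gene's control mean, the 3 deficient arrays lay at medians of -0.407, -0.437 and -0.415 over the 39 genes, and the control arrays between -0.012 and 0.005. The 3 deficient arrays were thus close to each other, and each lay below the control mean in 34 or 35 of the genes. In RNA of a whole tissue, fewer muscle cells, less of these RNAs per muscle cell and more RNA from other cells cannot be told apart.

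**Figure D1:**
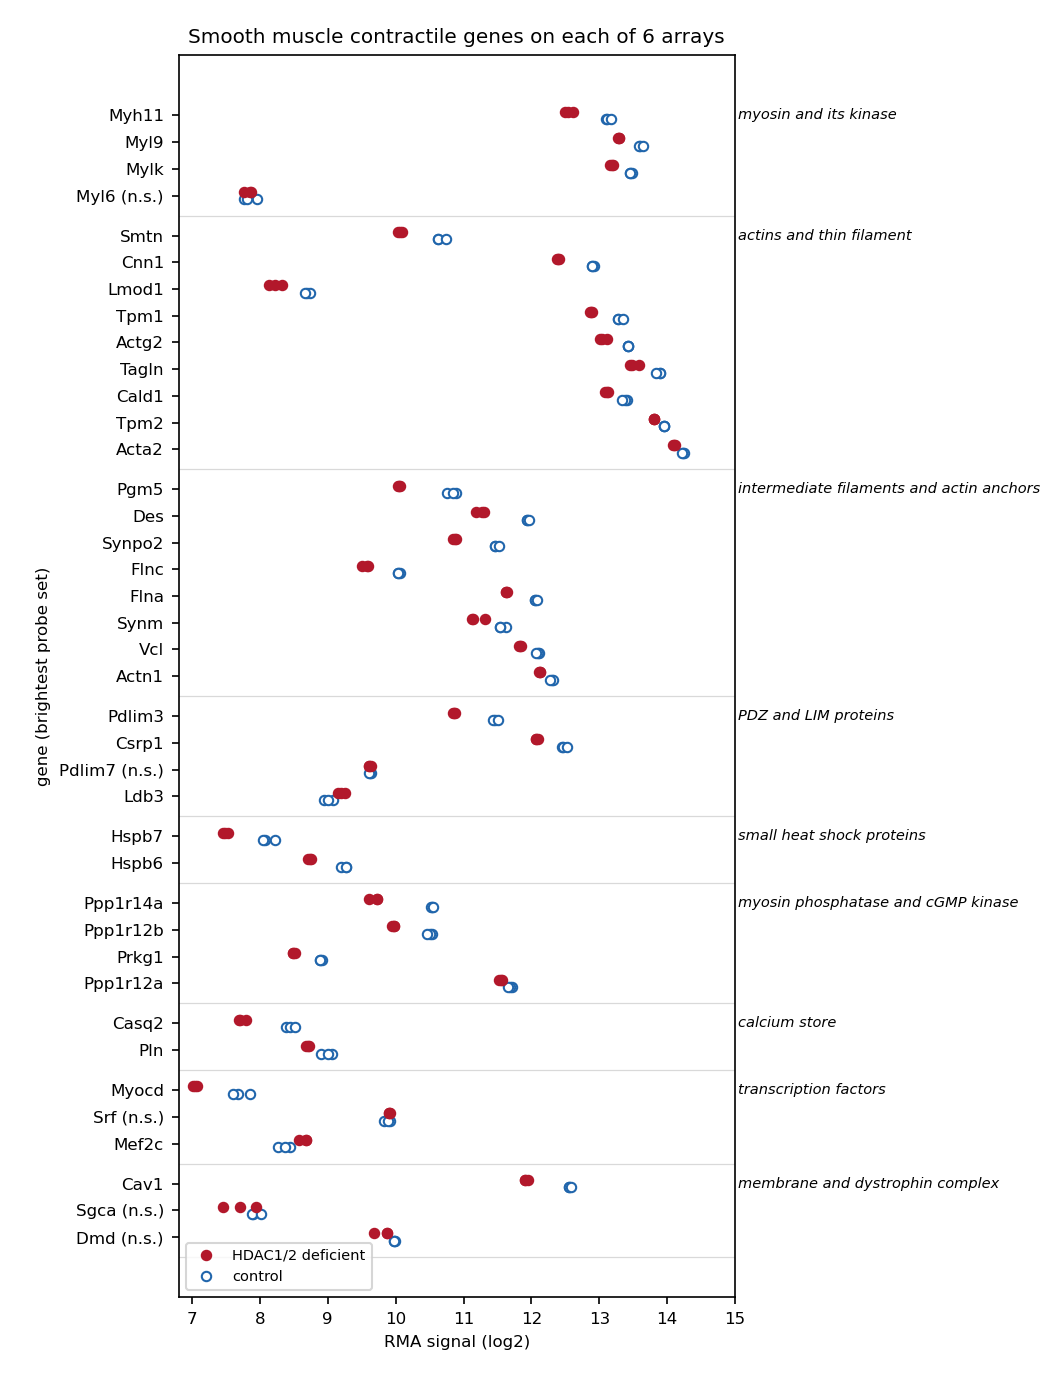
RMA signal (log2, horizontal axis) of the 39 smooth muscle contractile genes on 3 HDAC1/2 deficient arrays (filled red) and 3 control arrays (open blue), 1 row per gene, grouped by role. Genes marked n.s. did not pass limma at an adjusted p under 0.05. Red points lie left of the blue ones in most rows, and right of them in Ldb3 and Mef2c.

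Myosin genes fell except for the essential light chain. Myh11, the smooth muscle myosin heavy chain, had log2 signals of 12.54, 12.61 and 12.50 in deficient colon, against 13.10, 13.11 and 13.17 in control colon. All 3 deficient arrays lay below all control arrays (a log2 change of -0.58 with a standard error of 0.046, adjusted p = 4.48e-05 by limma), which corresponds to 0.67 of the control signal. Myl9, the regulatory light chain that is phosphorylated to start contraction, fell by 0.33 on the log2 scale. Mylk, the kinase that phosphorylates it, fell by 0.28. Myl6, an essential light chain that nonmuscle myosins also carry, was at 7.85, 7.87 and 7.76 in deficient colon and at 7.77, 7.96 and 7.81 in control colon. Its groups overlapped (a log2 change of -0.016 with a standard error of 0.061, adjusted p = 0.865 by limma). Only 1 dim probe set carries the symbol Myl6 alone, and 2 others that share it with another gene were not used.

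All 9 genes of the actin filament fell. Smtn, which encodes smoothelin, an actin-binding protein of contractile smooth muscle, moved the most, with 10.06, 10.10 and 10.03 in deficient colon and 10.63, 10.63 and 10.74 in control colon (a log2 change of -0.60 with a standard error of 0.048, adjusted p = 4.30e-05 by limma). Cnn1, which encodes calponin, a brake on myosin's ATPase, was at 12.39 ± 0.008 in deficient and 12.90 ± 0.016 in control colon (SD, n = 3 each), a fall of 0.51 by limma (adjusted p = 3.13e-05). Lmod1, leiomodin, which starts actin filaments, fell by 0.47. Tpm1, a tropomyosin that lies along the filament, changed by -0.43. Actg2, the gamma actin of visceral smooth muscle, had 13.01, 13.11 and 13.04 in deficient colon against 13.43 on each control array, a fall of 0.38. Tagln, transgelin, a calponin-like actin binder, fell by 0.37, and Cald1, caldesmon, by 0.27. The smallest falls of these genes were those of Tpm2 (-0.16) and of Acta2 (-0.13), the alpha actin of vascular and visceral muscle. Acta2 was at 14.10, 14.11 and 14.09 in deficient colon and at 14.23, 14.25 and 14.22 in control colon, near the top of the scale, which ended at 14.85. The groups did not overlap (limma adjusted p = 0.0257), but the call was lost without any 1 of 5 of the 6 arrays and after a further quantile normalization (limma adjusted p from 0.0533 to 0.0891), while another probe set of the gene fell by 0.61.

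All 8 genes of intermediate filaments and actin anchorage fell as well, and they held several of the larger changes. Pgm5, aciculin, a protein of adhesion plaques without known enzyme activity, had 10.04, 10.07 and 10.05 in deficient colon and 10.89, 10.76 and 10.84 in control colon (a log2 change of -0.78 with a standard error of 0.048, adjusted p = 1.26e-05 by limma). Des, desmin, the muscle intermediate filament, was at 11.27, 11.30 and 11.19 in deficient colon and at 11.93, 11.94 and 11.96 in control colon (a log2 change of -0.69 with a standard error of 0.045, adjusted p = 1.74e-05 by limma). In both genes every deficient array lay below every control array. Synpo2, synaptopodin 2, an actin-bundling partner of actinin and filamin, was at 10.89, 10.84 and 10.87 against 11.47, 11.46 and 11.52 in control colon, a fall of 0.62. Falls were also seen in Flnc (-0.49) and Flna (-0.43), the muscle and the widely expressed filamin, in Synm (-0.37), which encodes synemin, a partner of desmin, and in Vcl (-0.27), vinculin. The Synm call was lost with the methods' test after Benjamini-Hochberg adjustment (adjusted p = 0.0515). Actn1, alpha-actinin, moved the least, with 12.12, 12.12 and 12.11 in deficient colon and 12.30, 12.32 and 12.28 in control colon (a log2 change of -0.18 with a standard error of 0.038, adjusted p = 0.00616 by limma).

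The PDZ and LIM domain proteins, which sit on actinin and link filaments to signaling, did not move together. Pdlim3 was at 10.87, 10.84 and 10.86 in deficient colon and at 11.46, 11.44 and 11.51 in control colon (a log2 change of -0.61 with a standard error of 0.041, adjusted p = 1.86e-05 by limma), and Csrp1, a LIM-only protein, fell by 0.40. Pdlim7, a relative of Pdlim3, had 9.61, 9.64 and 9.60 in deficient colon and 9.64, 9.62 and 9.60 in control colon. These values overlapped throughout (a log2 change of -0.009 with a standard error of 0.039, adjusted p = 0.883 by limma). Ldb3, known as cypher or ZASP of the Z-disc in striated muscle, was higher instead, at 9.25, 9.19 and 9.15 against 9.07, 8.94 and 9.01 in control colon (a log2 change of 0.19 with a standard error of 0.051, adjusted p = 0.0179 by limma). The groups lay close but apart, and the call was lost without control replicate 2 (adjusted p = 0.0549) or without deficient replicate 1 (adjusted p = 0.0673), and with the methods' test after Benjamini-Hochberg adjustment (adjusted p = 0.0578). Among small heat shock proteins, Hspb7, a chaperone of heart and muscle, had 7.53, 7.46 and 7.48 in deficient and 8.22, 8.07 and 8.04 in control colon (a log2 change of -0.62 with a standard error of 0.057, adjusted p = 9.13e-05 by limma), while its other 2 probe sets were at -0.25 (past the test) and -0.11 (not past). Hspb6, a target of cyclic nucleotide kinases during relaxation, was at 8.74, 8.75 and 8.71 in deficient and at 9.27, 9.19 and 9.27 in control colon, a fall of 0.51.

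Genes that set the calcium sensitivity of the filaments included the largest fall of the 39. Ppp1r14a, CPI-17, a muscle inhibitor of myosin phosphatase, had 9.72, 9.61 and 9.73 in deficient colon and 10.53, 10.52 and 10.55 in control colon (a log2 change of -0.84 with a standard error of 0.047, adjusted p = 7.93e-06 by limma). Its signal in deficient colon was 0.557 of that in control colon. Of the targeting subunits of the phosphatase, the muscle-rich Ppp1r12b fell by 0.53 in its brightest probe set, while its other 3 did not pass. The widely expressed Ppp1r12a was at 11.57, 11.52 and 11.55 in deficient colon and at 11.71, 11.68 and 11.66 in control colon (a log2 change of -0.14 with a standard error of 0.041, adjusted p = 0.0312 by limma). This call was lost without any 1 of 5 of the arrays and with the replicate number as a block (limma adjusted p from 0.0615 to 0.0949). Prkg1, the cGMP-dependent kinase that mediates relaxation by nitric oxide, fell by 0.40. Of the calcium store, Casq2, calsequestrin, was at 7.70, 7.69 and 7.80 in deficient and at 8.38, 8.45 and 8.52 in control colon (a log2 change of -0.72 with a standard error of 0.055, adjusted p = 3.43e-05 by limma). Pln, phospholamban, the inhibitor of the store's calcium pump, had 8.71, 8.68 and 8.72 in deficient and 9.06, 8.90 and 9.01 in control colon, a fall of 0.28 that did not pass with the methods' test after Benjamini-Hochberg adjustment (adjusted p = 0.0709).

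The transcription factors of the list went different ways. Myocd, myocardin, the smooth and cardiac muscle coactivator of serum response factor, was at 7.07, 7.01 and 7.04 in deficient colon and at 7.67, 7.61 and 7.85 in control colon (a log2 change of -0.67 with a standard error of 0.067, adjusted p = 1.36e-04 by limma). A second, dimmer Myocd probe set was slightly higher in deficient colon (0.17, limma adjusted p = 0.0406). Srf, serum response factor itself, had 9.90, 9.90 and 9.92 in deficient colon and 9.92, 9.83 and 9.88 in control colon. Its groups overlapped in this probe set (a log2 change of 0.033 with a standard error of 0.042, adjusted p = 0.587 by limma), while the second one rose by 0.27 (limma adjusted p = 0.0303). Mef2c, a factor of muscle that is also made in B cells, myeloid cells and endothelium, rose, with 8.68, 8.68 and 8.58 against 8.44, 8.27 and 8.37 in control colon (a log2 change of 0.29 with a standard error of 0.059, adjusted p = 0.00569 by limma). Markers of leukocytes rose in the same arrays (5 of 6, by 0.48 to 1.34), and their part in the Mef2c signal was not tested.

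Serum response factor binds the CArG box, a palindrome of a pair of C, 6 A or T and a pair of G. The boxes in the promoters are shown because the list holds both this factor and its coactivator. The exact box was searched on both strands of RefSeq promoter windows of build GRCm38.p6, from 250 bases before to 50 after each gene's start, and it reads as a box on both strands alike. Windows were held for 35 of the 39 genes, and 6 of these had a box (17.1%), against 488 of 27025 genes in all (1.81%). With up to 1 mismatch, 17 of the 35 genes (48.6%) and 23.8% of all genes had a match. The 6 genes are given 5′ to 3′ on the gene's strand, up to 30 bases on each side, with the box in capitals:
Myl9 (chr2:156775273-156775342, plus strand): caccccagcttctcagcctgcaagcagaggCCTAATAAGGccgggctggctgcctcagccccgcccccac
Vcl (chr14:20929148-20929210, plus strand): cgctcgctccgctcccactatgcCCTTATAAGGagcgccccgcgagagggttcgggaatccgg
Dmd (chrX:82948742-82948811, plus strand): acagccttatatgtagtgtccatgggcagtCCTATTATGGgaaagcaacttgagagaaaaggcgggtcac
Myl6 (chr10:128493020-128493089, minus strand): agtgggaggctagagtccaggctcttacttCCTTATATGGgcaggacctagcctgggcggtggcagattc
Srf (chr17:46556185-46556274, minus strand): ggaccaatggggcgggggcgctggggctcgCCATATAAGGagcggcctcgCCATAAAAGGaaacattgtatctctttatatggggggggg
Ldb3 (chr14:34588677-34588746, minus strand): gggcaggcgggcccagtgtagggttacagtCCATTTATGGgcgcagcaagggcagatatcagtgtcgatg
The Srf window held a pair of boxes, with first bases 82 and 62 bases before its start. These 6 genes did not share a direction of change. Myl9 and Vcl fell by 0.33 and 0.27, Ldb3 rose by 0.19, and Dmd, Myl6 and Srf did not pass the test in their brightest probe sets. A dimmer probe set fell by 0.22 in Dmd (limma adjusted p = 0.0235) and rose by 0.27 in Srf (limma adjusted p = 0.0303). A match to these letters is a description of the window and not a site of binding.

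At the membrane, Cav1, caveolin-1, the coat protein of the caveolae that line smooth muscle cells and also endothelium and fibroblasts, was at 11.95, 11.91 and 11.91 in deficient colon and at 12.55, 12.56 and 12.59 in control colon (a log2 change of -0.64 with a standard error of 0.040, adjusted p = 1.33e-05 by limma). The dystrophin complex, which ties actin to the matrix, moved less in this list. Dmd, dystrophin, had 9.87, 9.68 and 9.87 in deficient colon and 9.99, 9.97 and 9.98 in control colon. The groups did not overlap but the change did not pass in this brightest probe set (a log2 change of -0.18 with a standard error of 0.060, adjusted p = 0.0531 by limma). This change did pass when dim probe sets were left out (adjusted p = 0.0289) or with trend and robust settings (adjusted p = 0.00654). The mean of the Dmd probe sets also passed (-0.14, limma adjusted p = 0.0499). The next brightest of its 4 probe sets fell by 0.22 (limma adjusted p = 0.0235), and the dimmer ones did not pass. Sgca, alpha-sarcoglycan, was the most variable gene of the list, at 7.71, 7.45 and 7.94 in deficient colon and at 7.90, 7.89 and 8.02 in control colon, with overlap (a log2 change of -0.24 with a standard error of 0.12, adjusted p = 0.151 by limma). Without deficient replicate 3 its value was -0.36 (adjusted p = 0.0205).

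The genes were also sorted by how widely they are expressed. All 9 genes largely restricted to smooth muscle among adult muscle types (Myh11, Acta2, Actg2, Tagln, Cnn1, Smtn, Lmod1, Mylk and Ppp1r14a) fell, with a median of -0.47. Of 16 genes also made in heart or skeletal muscle, 12 fell, 2 rose and 2 did not pass, with a median of -0.52. Of 14 broadly expressed genes, 11 fell, 0 rose and 3 did not pass, with a median of -0.27. Over all genes 28.4% fell and 21.9% rose, with a median of -0.022. The medians are a description and were not tested against each other. Skeletal muscle markers, which an anal or distal piece of colon could add, were mixed (2 of 14 lower and 5 higher), and their summed linear signal ran from 1970 to 2100 on deficient arrays and from 1930 to 2090 on control arrays. Markers of squamous epithelium, which lines the anal canal, fell in 7 of 9 cases and rose in 1, with a summed signal of 2540 to 2590 in deficient and 13200 to 13500 in control colon. Most of this sum came from a single gene, Tgm3, at 10.43 in deficient and 13.36 in control colon. Krt10 (6.46 against 9.60) and Krt6b (5.99 against 9.18) were much dimmer, so the sum mainly describes Tgm3. The list did not move together. Krtdap (-2.90), Krt14 (-1.40) and Lor (-0.47) fell as well, and Krt5 fell by only 0.17. Krt13 rose by 0.29, and Trp63 did not pass (0.0016). Whether the pieces of colon reached equally far towards the anus was not tested.

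Where a gene had more than 1 probe set, the sets often differed in the size of the change, and Myocd alone had sets that passed the test in both directions. Of the 49 probe sets that were not the brightest of their gene, 21 fell, 6 rose and 22 did not pass, against 21.0% falling and 18.8% rising among all 45037 probe sets. Of the 20 with a mean log2 signal of 8 or more, 15 fell and 1 rose, and of the 29 dimmer ones 6 fell and 5 rose. All probe sets fell in Synpo2 (4 sets, from -0.36 to -0.62), Mylk (3 sets, from -0.28 to -0.46), Myh11 (-0.35 and -0.58), Des (-0.34 and -0.69), Flnc (-0.38 and -0.49), Csrp1, Prkg1 and Synm. In Synm the second probe set moved further than the brightest (-0.70 against -0.37). The same held for Acta2, whose brightest probe set, named as one that can match several transcripts, changed by -0.13 and a dimmer one by -0.61. That dimmer set had 9.39, 9.38 and 9.36 in deficient colon and 9.98, 9.94 and 10.04 in control colon (limma adjusted p = 2.57e-05). Mef2c rose in 4 of 5 probe sets (up to 0.65) and Ldb3 in 2 of 3 (up to 0.49). In Cald1, Tpm1 and Tpm2 some sets fell and none rose, with other sets that did not pass. The mean of all sets of a gene was smaller than the change of the brightest by more than 1.5 times in Tpm1 (-0.25), Cald1 (-0.12), Hspb7 (-0.33), Ppp1r12b (-0.15) and Myocd (-0.25), and larger in Acta2 (-0.26), each still past the test.

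**Figure D2:**
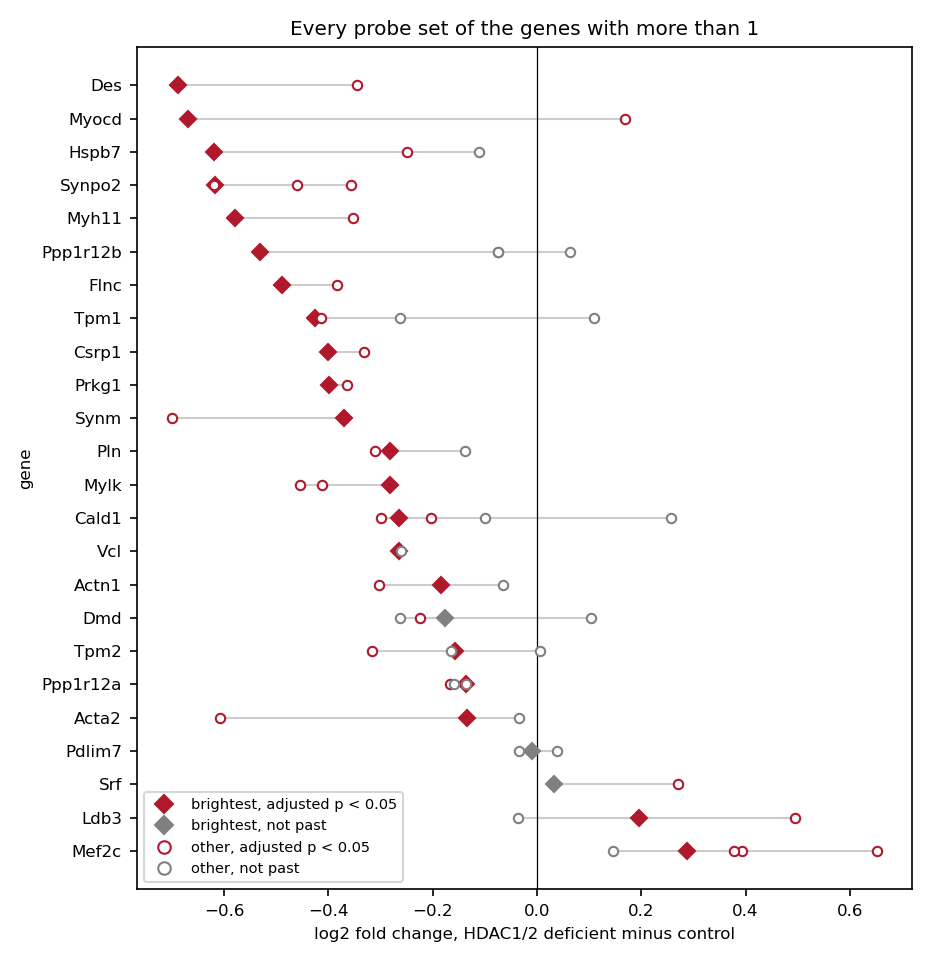
Log2 fold change (HDAC1/2 deficient minus control, 3 arrays each, horizontal axis) of every probe set of the 24 genes with more than 1. Diamonds are the brightest probe set of a gene and circles the others, red where limma's adjusted p was under 0.05. Acta2 and Synm have a dimmer probe set far left of the diamond, and Myocd has 1 on either side of 0.

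Several contractile genes have relatives with the same fold or function that nonmuscle cells use, and several of these rose. Cnn2, a calponin of many cell types, was at 10.31 ± 0.047 in deficient and 9.73 ± 0.041 in control colon (SD, n = 3 each), a rise of 0.58 by limma (adjusted p = 4.22e-05), where Cnn1 fell by 0.51. Tpm4 and Tpm3, tropomyosins of the cytoskeleton, rose by 0.52 and 0.40. The cytoplasmic actins Actb and Actg1 rose by 0.18 and 0.22, Actb in 1 of 2 probe sets, and both lay near the top of the scale. Actn4 rose by 0.24 and the light chain Myl12a by 0.22. Myl12b (-0.012) and the nonmuscle heavy chain Myh9 (0.004) did not pass. Myh10 fell by 0.22 in 1 of 2 probe sets, and Cnn3 by 0.14, with 2 of 6 probe sets lower. In the other direction, Csrp2, a LIM-only relative of Csrp1 that is rich in smooth muscle, fell by 0.93 where Csrp1 fell by 0.40. Utrn, utrophin, fell by 0.72 in 1 of its 3 probe sets, where the brightest Dmd probe set was at -0.18 and did not pass. The differences between the log2 fold changes of the 13 pairs compared ran from -1.09 (Cnn1 minus Cnn2, standard error 0.035) to 0.54 (Dmd minus Utrn, standard error 0.058). In each pair the difference separated the 3 deficient from the 3 control arrays, with an exact two-sided permutation p = 0.1 and 0.1 after adjustment over the 13 pairs, the smallest that 3 against 3 arrays allow. The pairs were put together after the values were seen, so this p cannot serve as support for them. Among all single genes the groups did not overlap in 34.1% (lower) and 26.9% (higher). The share among all possible pairs of genes was not counted.

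**Figure D3:**
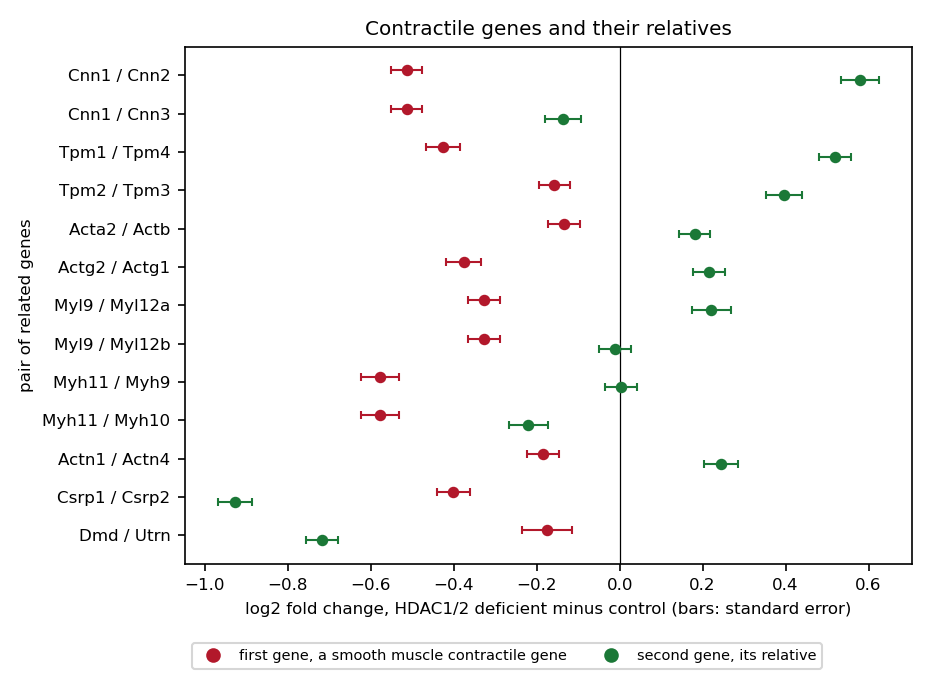
Log2 fold change (HDAC1/2 deficient minus control, horizontal axis, bars are limma's standard error) of 13 pairs of related genes, with the smooth muscle contractile gene in red and its relative in green. Green points lie right of red ones in 11 pairs and left of them in Csrp1 with Csrp2 and Dmd with Utrn.

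Further genes tied to contraction or to actin filaments, here called other contraction genes, came from 102 genes listed outside the 39. Of the 92 measured, 51 fell, 15 rose and 26 did not pass, with a median of -0.23. They include 13 other actin filament proteins, among them relatives described above that nonmuscle cells use. Of all genes 28.4% fell and 21.9% rose, with a median of -0.022, and the counts below are read against these shares. Receptors and their G proteins, with 4 of 12 lower and 2 higher, were near the shares of all genes. Plcb1, a phospholipase that makes the calcium-releasing messenger, fell by 0.52 in 1 of 5 probe sets, and Ptger3, a contractile prostaglandin receptor, by 0.51 in 1 of 2. Of 11 genes of calcium channels and release 6 fell and 2 rose, with Cacna1h (-0.71), a T-type channel, and Cacna1c (-0.59), the L-type channel through which smooth muscle takes up calcium, moving the most. Atp2a2, the calcium pump of the store that many cells use, rose by 0.22 in its brightest probe set and in 3 of 6 in all.

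Several genes of relaxation fell as well. The subunits of soluble guanylyl cyclase, the nitric oxide receptor that feeds Prkg1, fell by 0.86 (Gucy1a1) and 0.60 (Gucy1b1), as did the kinase's substrate Irag1 (-0.48, Mrvi1 in the annotation) and the phosphodiesterase Pde5a (-0.35). In this group of 9 genes, 6 fell and 1 rose. Of 14 integrin and adhesion plaque genes 9 fell and 2 rose. Nexn, nexilin, an actin-binding protein, fell by 0.77, Parva, alpha-parvin, by 0.75 and the integrin gene Itga8 by 0.69, while Itga9 rose by 0.55 in 1 of 3 probe sets.

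Genes of sarcoglycans and caveolae were the most uniform group of these, with 11 of 13 lower and 0 higher. Cav2, the partner of Cav1, was at 9.26 ± 0.020 in deficient and 10.24 ± 0.056 in control colon (SD, n = 3 each), the largest fall of the 92 genes (a log2 change of -0.97 with a standard error of 0.045, adjusted p = 3.31e-06 by limma). Its second probe set did not pass (-0.27). The cavin genes Cavin1, Cavin2 and Cavin3, which shape caveolae, fell (-0.57, -0.43 and -0.57), Cavin1 in 1 of 3 probe sets. Of 12 regulators of muscle transcription 6 fell and 1 rose. Mrtfb, a myocardin relative and coactivator of serum response factor, fell by 0.66 in 1 of 3 probe sets and its relative Mrtfa by 0.14, whereas Jag1, a Notch ligand, rose by 0.86. Only in the group of other actin filament proteins did rises outnumber falls (7 against 4 of 13). Those that rose were the relatives Cnn2, Tpm3, Tpm4, Actb, Actg1, Actn4 and Myl12a already described above.

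Of the cells that share the wall with smooth muscle, interstitial cells of Cajal, the pacemakers of the gut, had 3 marker genes measured, of which 2 fell. Kit, their growth factor receptor, was at 9.28 ± 0.052 in deficient and 10.27 ± 0.013 in control colon (SD, n = 3 each) (a log2 change of -0.99 with a standard error of 0.044, adjusted p = 2.77e-06 by limma), and Ano1, their chloride channel, which the epithelium can also make, fell by 0.65. The third gene, Prkcq, did not pass (0.29, limma adjusted p = 0.0525). Which cells gave the Kit and Ano1 signals was not tested. Of 9 enteric neuron genes 5 fell and 0 rose, with Snap25 at -0.50 and Vip at -0.46, and a median of -0.28 over the list. Of 4 glial genes 1 fell, S100b (-0.38), which is near the 28.4% of all genes. Of 8 fibroblast genes 4 fell, among them Lum (-0.89), and 2 rose, with a median of -0.17. Of 6 pericyte genes 2 fell, Rgs5 (-0.53) and Mcam (-0.49), and 2 rose, with a median of -0.056. The rises, in Pdgfrb (0.74) and Notch3 (0.55), were seen in 1 of 2 probe sets of each gene. The pericyte counts lie near the shares of all genes. Of 6 endothelial genes 4 fell and 0 rose, with a median of -0.27. Heart muscle markers included Tnnt2 (-0.63) and Actc1 (-0.53), which fell, and Myl7 (1.01), which rose, with 3 of 8 lower and 1 higher and a median of -0.059.

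Of 10 epithelial markers 5 rose, 1 fell and 4 did not pass, where 21.9% of all genes rose, with a median of 0.090. Krt20 (0.67) and Vil1 (0.35), genes of differentiated epithelium, changed the most. The gene that fell was Epcam (-0.16, limma adjusted p = 0.0121). Cdh1 (-0.14), Krt8 (0.057), Krt18 (0.0098) and Lgals4 (0.012) did not pass. The summed linear signal of the 10 markers was 167000 to 169000 on deficient arrays and 158000 to 159000 on control arrays. The summed linear signal of the 39 smooth muscle genes was 140000 to 141000 on deficient arrays and 178000 on each control array when rounded. Leukocyte markers rose in 5 of 6 cases, with a median of 0.70 and with Ptprc, the pan-leukocyte antigen CD45, up by 1.34, and their summed signal was 7440 to 7590 in deficient and 4540 to 4730 in control colon. Mesothelial markers had 0 of 4 lower and 1 higher, with a median of 0.15. RMA values are relative to the RNA on each array, and the part of these other cell types in the fall of the muscle genes was not tested.

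**Figure D4:**
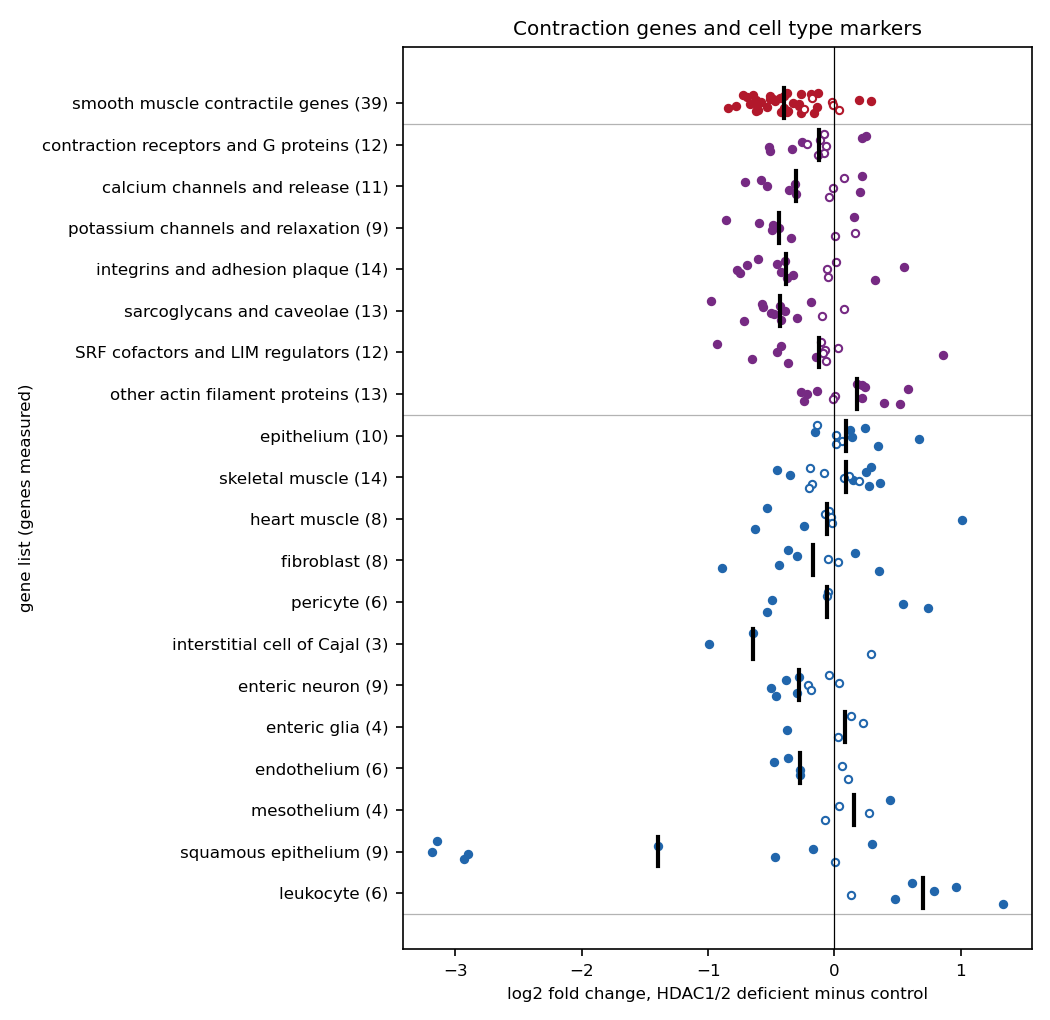
Log2 fold change (HDAC1/2 deficient minus control, 3 arrays each, horizontal axis) of single genes in the list of 39 (red), in 7 lists of other contraction genes (purple) and in 12 lists of cell type markers (blue), with the number measured in parentheses. Filling marks genes past the limma threshold of 0.05, and the median of each list is drawn as a black bar, at -0.40 for the 39 genes and 0.090 for epithelial markers.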

How the data were processed

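RNA from the colon of 3 HDAC1/2 deficient and 3 control mice was measured on 6 Affymetrix mouse genome arrays. The deposited table holds log2 signals, 1 per probe set and array, which the authors had background-corrected and normalized by RMA in Flexarray. RMA compresses changes of dim probe sets, and the number of arrays limits the precision. Groups and replicate numbers came from the sample labels, and the age from the text of the study.

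After 64 control probe sets had been removed from 45101, a limma model (version 3.58.1 under R 4.3.3, lmFit followed by eBayes, deficient minus control, no covariate) was fitted to the remaining 45037, and Benjamini-Hochberg adjustment covered every one of these at a threshold of 0.05. The methods' test was Welch's, which was run as an alternative because 3 arrays per group give a poor estimate of a gene's own variance. In the annotation used, 34945 probe sets had 1 symbol, 932 several and 9160 none, and genes were named only from the first kind. Detection calls and scan batches were not used here. Probe set names ending in _s_at or _x_at mark sets that can match several transcripts.

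The 39 genes and the lists of contraction genes and markers were chosen with earlier results of these data known, so lists are described by counts, most also by a median, to be read beside those of all genes, with no test of a list. In each role, the genes with the lowest and the highest fold change, those that rose or did not pass, and the 8 largest changes are given with their values. Of the other lists, up to 2 called genes with the largest change per group are named, and further genes named there were chosen after their values were seen. 1 group of the contraction genes is not reported here on its own. Promoters are from RefSeq, build GRCm38.p6. The fit was tested on simulated data. Alternatives were the methods' test with and without adjustment, quantile normalization, median centring, eBayes with trend and robust options, a filter on the 40% of probe sets with the lowest mean, weights per array, removal of shared-sequence probe sets, averaging a gene's probe sets, a replicate block and leaving out each array. Figures were drawn with matplotlib 3.10.9.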

Additional observations from a re-analysis of the deposited data

How the results depend on the processing

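Of the 39 genes, 29 kept their direction and their side of the threshold under all 16 alternatives that measured them, and 33 did so when each array was left out in turn. The number of genes that rose was 1 in place of 2 with the methods' t-test after Benjamini-Hochberg adjustment, and ran from 1 to 2 when 1 array was left out. It was 3 without probe sets of shared sequence and also 3 when a gene's probe sets were averaged. The median log2 fold change was -0.37 when a gene's probe sets were averaged, in place of -0.40, and ran from -0.41 to -0.39 without 1 array. Pdlim7 changed sign, at 0.0065 after a further quantile normalization and from -0.0191 to 0.001 without 1 array, and Myl6 ran from -0.0527 to 0.0396 without 1 array. Neither passed the test under any of these settings. Srf passed without probe sets of shared sequence (0.27, adjusted p = 0.0305), since that takes the second probe set, and with the mean of its probe sets (0.15, adjusted p = 0.0336). Casq2 has no probe set left when those of shared sequence are left out. The labels do not say whether a replicate number shared by both groups pairs the samples. The deviations of same-numbered arrays correlated at 0.0964, 0.064 and -0.0258, and those of differently numbered arrays at -0.103 to 0.0304. With 3 arrays per group these correlations cannot settle whether samples were paired, so the block was run as an alternative. With the replicate block 30 genes fell and 2 rose, because Acta2 and Ppp1r12a no longer passed. The calls of the other 37 genes did not change under the block. Of the 92 other contraction genes, 49 fell and 14 rose with the block, against 51 and 15 without it.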
